A study of Bos indicus with 9 samples.

Results

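Hypothalamus-only open regions are peaks of open chromatin in Brahman (Bos indicus) hypothalamus, chosen by the lack of overlap, not even by 1 bp, with any muscle or liver peak. The rule kept chromosomes 1 to 29 and starts at or above 1000000 bp. Of 68177 hypothalamus peaks that met the limits on position, 51518 were hypothalamus-only, or 75.6% (Wilson 95% interval 75.2 to 75.9). The whole hypothalamus list holds 78528 peaks, and the lists of the 3 tissues together hold 140923. The remaining 16659 hypothalamus peaks within the limits are called shared here.

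ATAC-seq uses the Tn5 transposase to cut DNA where chromatin is accessible, and the fragments released are sequenced. The 9 libraries are hypothalamus, muscle, and liver of 3 Brahman heifers (2047, 2054, and 2057). The heifers were past puberty, close in age and weight, and not related to each other, and no treatment is named for them. Brahman is an indicine breed kept in the tropics. The authors called 1 consensus list of peaks for each tissue over its 3 heifers, with positions in ARS-UCD1.2, a Bos taurus assembly. Each peak has 2 values taken over the heifers together, the −log10 p where it is highest (the summit) and a signal, the area under its −log10 p curve (AUC). With no value per heifer and no read counts, the depth behind a peak is unknown, and nothing could be tested between tissues. Intervals below cover counting error only, and neighbouring peaks are not independent.

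The hypothalamus is a mixture of neurons, oligodendrocytes, astrocytes, microglia, and vessel cells, and it controls appetite, growth, body temperature, and reproduction through releasing hormones and neuropeptides. Open chromatin marks promoters, which lie at a transcription start site (TSS), and distal elements such as enhancers. Promoters of genes used by every cell tend to be open in every tissue, while distal elements tend to be open in fewer cell types. In a bulk tissue, fewer cells of a type and less open chromatin per cell cannot be told apart.

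The hypothalamus-only regions were many, short, and mostly low. They covered 32.5 Mb, or 55.7% of the bases under the hypothalamus peaks considered. Their median length was 475 bp (quartiles 316 and 744), beside 1377 bp in shared peaks. Their median summit −log10 p was 5.35 (quartiles 4.29 and 7.34), beside 12.2 in shared peaks, and their median AUC was 645, beside 4843. The regions were chosen by peak calls that rest on these same values, so they are given as a description, with no test.

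The range was wide, however, and 5% of the regions had a summit above 12.97. The highest summit was 23.9 and the longest region spanned 21652 bp. In the plot of summit values, hypothalamus-only regions outnumbered shared peaks among low summits and fell below them among high ones. In each of the lowest 5 deciles of peaks by summit, between 89.7% and 92.3% were hypothalamus-only. The share was 69.0% in decile 8, 42.8% in decile 9, and 20.2% (19.2 to 21.1) in the highest decile, where 1375 of 6818 peaks had no muscle or liver peak. Length gave the same order, from 94.97% in the shortest decile to 25.6% in the longest.

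**Figure D1:**
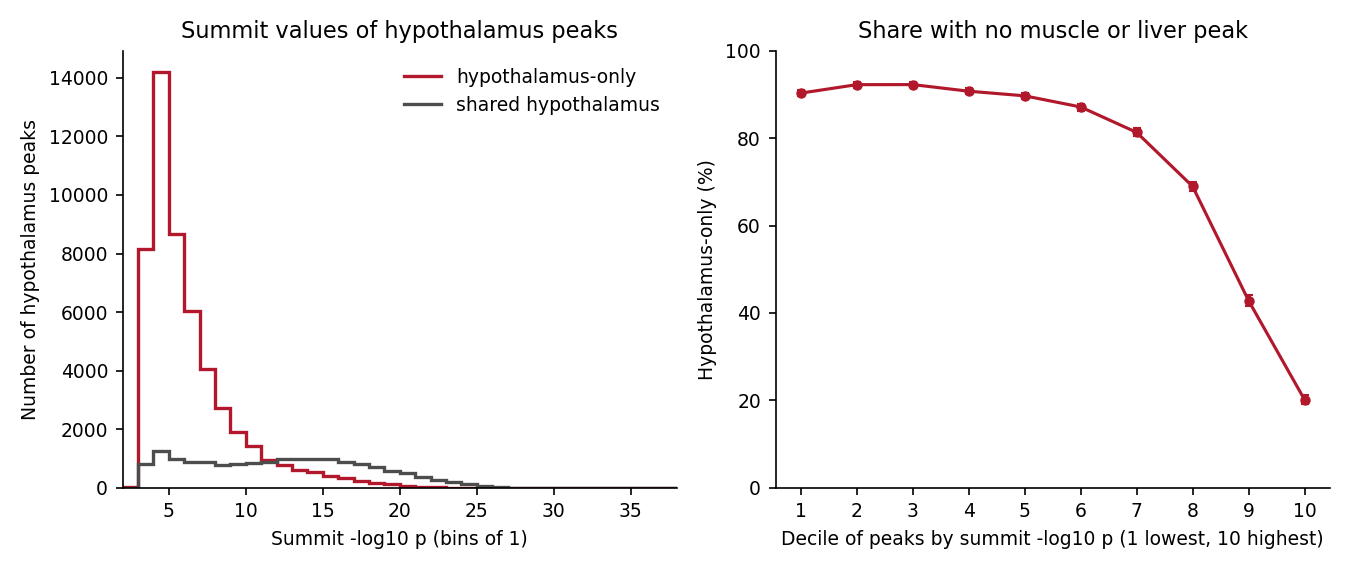
Left, the number of autosomal hypothalamus peaks by summit −log10 p in bins of 1, for hypothalamus-only regions (red) and shared peaks (grey). Right, the share of hypothalamus-only regions in each decile of the peaks by summit, with Wilson 95% intervals, which falls from 90.3% in the lowest decile to 20.2% in the highest.

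The other lists were much smaller, so there were fewer peaks for those of hypothalamus to overlap. Within the same limits muscle held 28554 peaks, of which 10681 (37.4%) overlapped neither other tissue, and liver held 10465, of which 632 (6.04%) did. Of the shared hypothalamus peaks, 8207 overlapped both other tissues, 7844 overlapped muscle but not liver, and 608 overlapped liver but not muscle. Muscle-only regions had a median summit of 4.55 and a median length of 403 bp, both below the hypothalamus-only medians. Taking the 10465 peaks with the largest AUC from each list lowered the hypothalamus-only regions to 3425, or 32.7% of the hypothalamus peaks taken, with a median length of 1963 bp and a median summit of 14.9. How far list size sets the share was not tested beyond this.

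Peaks just inside and just outside the rule were alike in strength. The 10 regions nearest to a muscle or liver peak lay 0 to 33 bp from it, with summits of 3.64 to 7.65. The 10 shared peaks with the least overlap had 1 to 24 bp covered, with summits of 3.23 to 9.67. The 10 regions nearest above the limit on the start had summits of 3.23 to 12.3, and the 10 nearest below it 3.64 to 10.8. Few regions lay at the border, with 2753 of 51518 (5.34%) within 1 kb of a muscle or liver peak. The median gap was 24.7 kb (quartiles 7.15 and 79.0), 10748 regions (20.9%) lay over 100 kb away, and the largest gap was 4.12 Mb.

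Every autosome carried hypothalamus-only regions, at 14.4 to 37.1 per Mb, while shared peaks ran from 3.17 to 17.4 per Mb. Density was lowest on chromosome 6, with 14.4 regions per Mb beside 3.58 shared peaks per Mb, and highest on chromosome 19, with 37.1 beside 17.4. The hypothalamus-only share ran from 66.6% (64.4 to 68.8) on chromosome 25 to 83.9% (81.9 to 85.7) on chromosome 20. Chromosomes 18 and 19 were near the low end at 67.3% and 68.0%, and chromosome 24 near the high end at 83.8%. Median summits differed little between chromosomes, from 5.15 on chromosome 26 to 5.51 on chromosome 20.

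**Figure D2:**
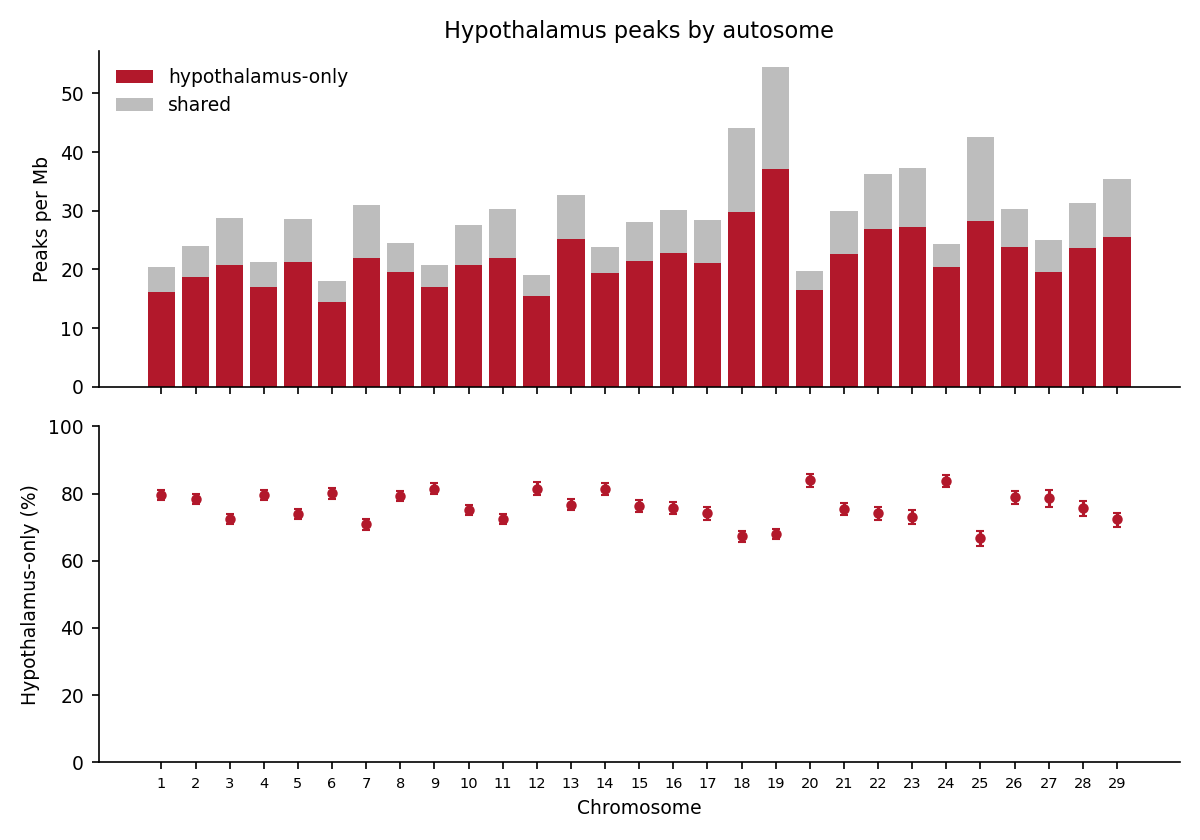
Hypothalamus-only (red) and shared (grey) peaks per Mb of each autosome, above, and the hypothalamus-only share with Wilson 95% intervals, below. Chromosomes 18, 19, and 25 have the most shared peaks per Mb and the lowest hypothalamus-only shares, from 66.6% to 68.0%.

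Many of the regions lay near one another. Another hypothalamus-only region was within 12500 bp of 34971 of the 51518 (67.9%), and the median distance to the nearest one was 5.46 kb. The same count was not made for shared peaks or muscle-only regions. Whether such spacing is particular to these regions was not tested. With the 10465 largest peaks of each list only, which left 3425 and so far fewer regions, 24.8% had such a neighbour. Between one muscle or liver peak and the next there were 13404 stretches with at least 1 hypothalamus-only region and a median of 2. Stretches with 20 or more numbered 250 and held 7240 regions, or 14.1% of all.

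The stretch with the most lay on chr1:59815824-64049587 and held 81 regions over 4.23 Mb, with summits up to 19.9. Genes placed in it include LSAMP and IGSF11, which encode adhesion molecules of the immunoglobulin family, and GAP43, a protein of growing axon tips. Next came chr1:84385189-86035148, with 72 regions in 1.65 Mb and SOX2 as the placed gene. A stretch on chr8:107058230-110001910 held 71 regions and reached into CDK5RAP2, a centrosome gene, and one on chr27:1520409-5445657 also held 71 but no placed gene. Much denser was chr15:28002816-28577885, with 57 regions in 0.575 Mb. Over whole chromosomes, regions numbered 16.2 per Mb on chromosome 1, 19.5 on chromosome 8, 19.6 on chromosome 27, and 21.4 on chromosome 15. The first stretch and that on chromosome 27 were near the density of their chromosomes, so a high count there reflects a long stretch.

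Gene positions in ARS-UCD1.2 came from a nearest-gene annotation of peaks, which for hypothalamus peaks covers chromosome 1 up to 97.0 Mb. In this annotated part 1493 of 1845 hypothalamus peaks (80.9%) were hypothalamus-only. Genes on chromosome 1 named through peaks of the other lists were used as well. Genes that were nearest to no peak have no position here and are left out, and TSS distances are those to the starts that were placed. Position relative to genes was not used by the rule. In this part of the genome hypothalamus-only regions stood away from promoters, and shared peaks often sat on them. A TSS was covered by 25 of the 1493 regions, or 1.67% (1.14 to 2.46), and by 157 of 352 shared peaks, or 44.6% (39.5 to 49.8). Within 3 kb of a TSS lay 6.36% (5.23 to 7.72) of the regions and 48.0% (42.8 to 53.2) of the shared peaks. Distances ran from the nearest edge, and over the autosomes shared peaks were longer, with medians of 1377 bp and 475 bp. Measured from the summit, 5.69% of the regions lay within 3 kb, and shared peaks were not measured this way.

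The median distance to a TSS was 63.1 kb (57.9 to 69.5) for hypothalamus-only regions and 4.49 kb (0.041 to 11.5) for shared peaks. Gene bodies held 35.8% (33.4 to 38.2) of the regions and 57.4% (52.2 to 62.4) of the shared peaks. Outside genes and over 3 kb from any TSS lay 62.2% of the regions and 40.3% of the shared peaks. Muscle-only regions of the same part resembled the hypothalamus-only ones near promoters, with 6.64% (4.24 to 10.3) of 271 within 3 kb of a TSS. Over 100 kb from a TSS, however, lay 49.1% (43.2 to 55.0) of muscle-only and 37.6% (35.2 to 40.1) of hypothalamus-only regions.

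**Figure D3:**
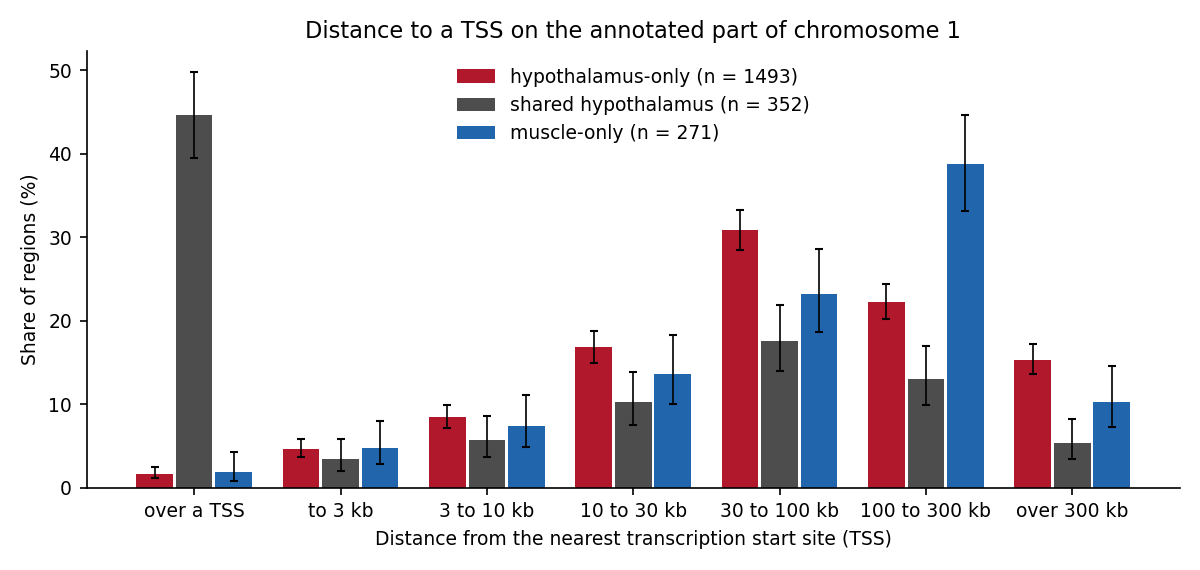
Share of 1493 hypothalamus-only regions, 352 shared hypothalamus peaks, and 271 muscle-only regions by distance from the nearest edge to the nearest TSS on the annotated part of chromosome 1, with Wilson 95% intervals. Shared peaks stand out over a TSS, at 44.6%, while hypothalamus-only regions are most often 30 to 100 kb away, at 30.8%.

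Summit strength moved little with position among the hypothalamus-only regions themselves. From the lowest to the highest of 4 equal groups by summit, 7.77%, 5.63%, 5.36%, and 6.68% lay within 3 kb of a TSS, with intervals that overlapped. Over ranges of summit with the same lower limits, 4.17% of 24, 13.04% of 23, 25.7% of 35, and 57.8% of 270 shared peaks lay as near. The highest range has no upper limit. Hypothalamus-only regions reached 22.2 in it and shared peaks up to 25.6, at PPP1R2, so summits were not matched within it. The intervals of hypothalamus-only and shared peaks overlapped in the lowest 2 ranges, where shared peaks were few. In the next range they were 3.50 to 8.14 and 14.2 to 42.1. In the highest, from a summit of 7.21, they were 4.57 to 9.68 and 51.8 to 63.5. These intervals cover counting error only, and a difference between the groups was not tested in any range. The share of hypothalamus-only regions near a TSS was 11.5% where a shared peak had to be covered by at least 50%. With the 10465 largest peaks of each list, which also leaves out the weaker hypothalamus peaks, it was 20.9%.

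The 25 regions that covered a TSS on the annotated part had an AUC of 439 to 13188. The genes below are given in order of AUC, a choice made after the values were seen. The leading 5 were at ADCY5, an adenylyl cyclase (chr1:67820492-67825133, AUC 13188, summit 11.1), OLIG1, a transcription factor of the oligodendrocyte lineage (chr1:2498446-2500881, AUC 9973, summit 14.01), and SOX2, a transcription factor of neural progenitors (chr1:85302349-85305350, AUC 9022, summit 13.1), followed by IGSF11 (AUC 8293, summit 17.3) and PEX5L, a partner of HCN channels (AUC 6937, summit 15.3). The SOX2 start was 730 kb from the nearest muscle or liver peak and the OLIG1 start 148 kb.

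Lower in that order came APOD, a lipid carrier made by glia, with a summit of 15.2, and CAMK2N2, an inhibitor of CaM kinase II, with 8.20. AHSG, which encodes the liver plasma protein fetuin-A, followed with a summit of 9.23, and a muscle or liver peak lay 3.88 kb away. CD200, a surface protein that restrains microglia, had 10.3 and LSAMP 6.81. The collagen hydroxylase gene P3H2 had 8.85, the junction gene JAM2 7.92, and NLGN1, a postsynaptic adhesion molecule, 7.42. The starts of LSAMP and NLGN1 lay 1376 kb and 669 kb from any muscle or liver peak. Then came HCLS1, a gene of blood cells, with 6.17, PDIA5, a protein disulfide isomerase, with 7.26, and FGF12, a regulator of sodium channels, with 7.20. The other 9 had an AUC of 439 to 1153.

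Outside that part, gene positions were known mainly where a gene was nearest to a peak of another list, so counts there are not a fair sample of genes. Over the autosomes 1981 named genes could be placed, 1416 of them had a hypothalamus peak over the start, and in 123 of these (8.69%) it was hypothalamus-only. The genes given next are again in order of AUC, chosen after their values were seen. The largest AUC at a start was at GAL3ST1, which makes the myelin lipid sulfatide (chr17:69551120-69555797, AUC 23745, summit 17.6). TF, the iron carrier transferrin, followed (chr1:135613630-135618878, AUC 22649, summit 19.8).

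Further starts of this kind belonged to TMEFF2, a brain transmembrane protein (AUC 19063, summit 20.8), GPR37, a receptor of oligodendrocytes (AUC 17609, summit 19.1), and CDH2, which encodes N-cadherin (AUC 14358, summit 13.2). After ADCY5 came CHN2, which encodes a Rac-regulating chimaerin, with an AUC of 12781 and a summit of 17.5. GPR17, a receptor of oligodendrocyte precursors, had an AUC of 11604 and a summit of 17.6. After OLIG1 and before SOX2, the glutamate receptor GRM3 had 9367 and 13.4. CLDN11, the claudin of myelin, came after SOX2 with 8698 and 17.1. Next came FAIM, an inhibitor of apoptosis, with an AUC of 8433, and after IGSF11 the phospholipase receptor gene PLA2R1, with 8022.

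A gene locus is taken here as the gene body with 50 kb on each side, and windows of neighbours overlap. Of the 297 genes on the annotated part of chromosome 1, 255 had at least 1 hypothalamus-only region at their locus and 11 had no hypothalamus peak. Among the 168 with 5 or more hypothalamus peaks, the median share was 75%, beside 80.9% over all hypothalamus peaks of this part. All peaks were hypothalamus-only at 18 of these genes, and under 50% were at 28. How many such loci that share alone would give was not tested. The plot of counts by gene shows the loci described below.

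**Figure D4:**
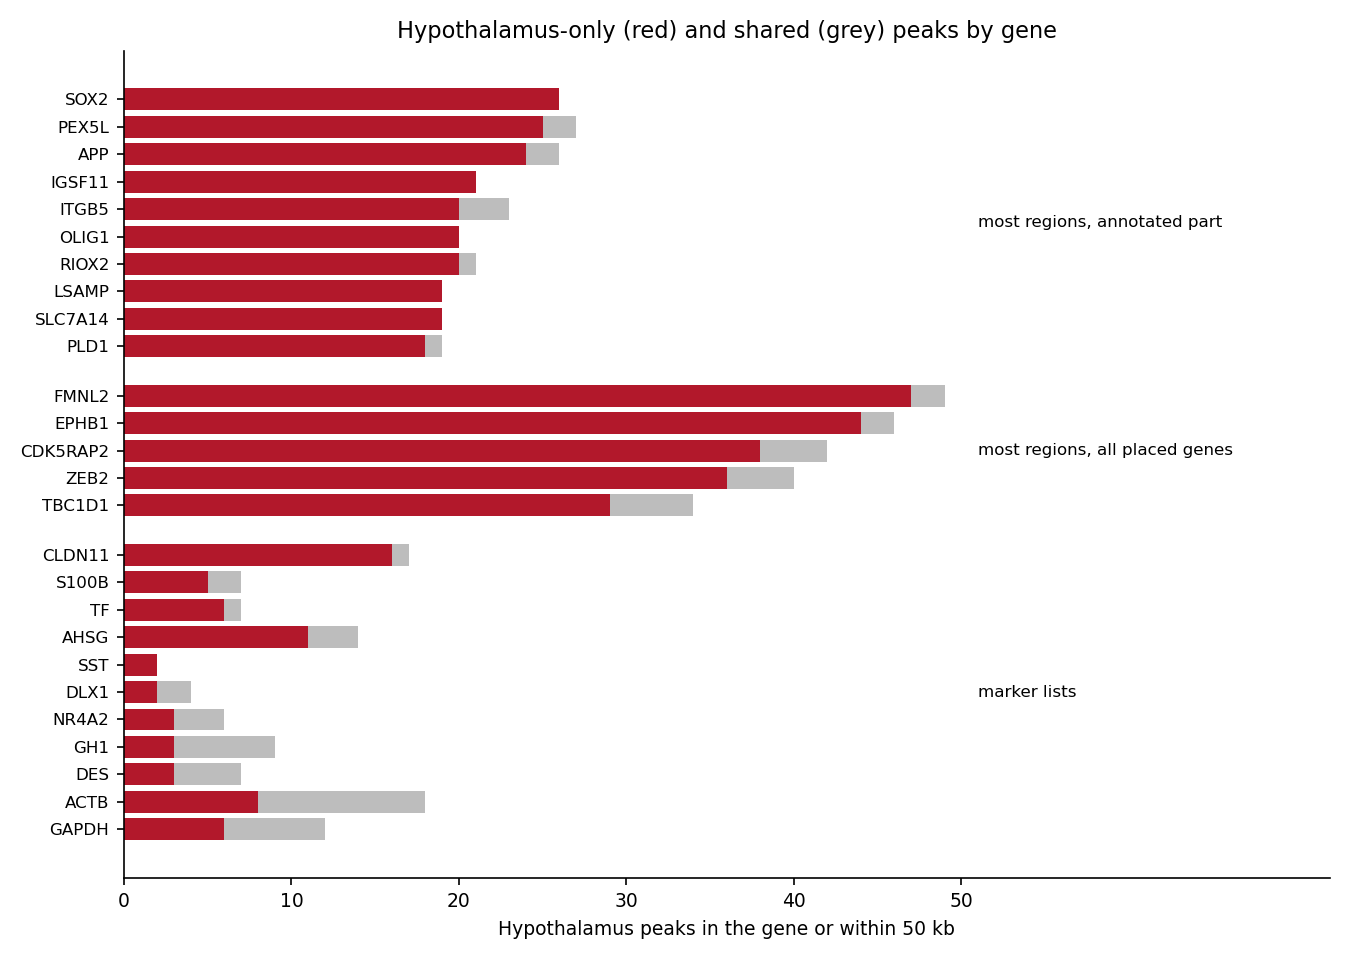
Number of hypothalamus-only (red) and shared (grey) hypothalamus peaks in each gene or within 50 kb of it, for the genes with the most regions on the annotated part of chromosome 1, those with the most among all placed genes, and genes of the marker lists. SOX2, IGSF11, OLIG1, LSAMP, and SLC7A14 have no shared peak, while ACTB has 10 shared peaks of 18.

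SOX2 had the most regions of the annotated part, 26 of 26 peaks, although the gene is only 1.47 kb long. They covered 20.3 kb, and their summits ran from 3.33 through a median of 5.12 to 17.4. Upstream of the start lay 10, over it 1, and downstream 15. The largest was not the promoter but chr1:85316089-85318114, 12.3 kb upstream, with an AUC of 12444. No muscle or liver peak lay within this window.

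OLIG1 showed 20 of 20, and its regions covered the most bases, 25.8 kb, with 12 upstream, 1 over the start, and 7 downstream. Here summits ran from 3.58 through a median of 5.88 to 22.2. The largest, chr1:2457144-2460134, lay 39.7 kb downstream with an AUC of 20002. By the RefSeq gene order of another Bos indicus assembly (Tharparkar), OLIG2, the partner gene of the oligodendrocyte lineage, lies next to OLIG1. That order was not matched to upstream or downstream here. OLIG2 has no position here, so which regions lie nearer to OLIG2 was not measured.

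At long genes the gene body fills most of the window, and the genes in this paragraph, except IGSF11, LSAMP, and APP, were chosen after their values were seen. Their counts stand beside a share of 80.9% over all hypothalamus peaks of the annotated part. LSAMP (716 kb) had 19 of 19, of which 16 were in the gene, and no summit exceeded 8.53. IGSF11 had 21 of 21 with 18 in the gene and summits up to 18.4. NLGN1 and FGF12 each had 13 of 13 with 11 in the gene, with highest summits of 7.50 and 15.6. LPP, a gene of cell adhesion sites (684 kb), had 15 of 15 with 12 in the gene. Other long genes had few, with 5 of 8 at KALRN (620 kb) and 0 of 1 at both EPHA3 (409 kb) and STXBP5L (322 kb). At APP, the amyloid precursor gene, 24 of 26 peaks were hypothalamus-only, all of them in the gene and none over the start, which was shared with muscle. Its highest summit, 19.5, lay 216 kb inside the gene at chr1:10448255-10450276.

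Other loci of the annotated part with many regions were PEX5L (25 of 27), the integrin gene ITGB5 (20 of 23), RIOX2, an oxygenase gene (20 of 21), SLC7A14, a transporter gene expressed in the nervous system (19 of 19), and the phospholipase gene PLD1 (18 of 19). They rank by number of regions, and 80.9% of all hypothalamus peaks of this part were hypothalamus-only. ITGB5, at 87.0%, was not far above that share. By covered bases SLC7A14 (19.5 kb) and ADCY5 (18.5 kb) came after OLIG1 and SOX2. The 3 largest regions of the SLC7A14 window were the same as those of its neighbour CLDN11. YEATS2 (17.9 kb), PARL (17.4 kb), and MAP6D1 also ranked high by covered bases, and the windows of all of them share the region chr1:83306493-83310688, which lies in MAP6D1 and has an AUC of 12105.

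**Figure D5:**
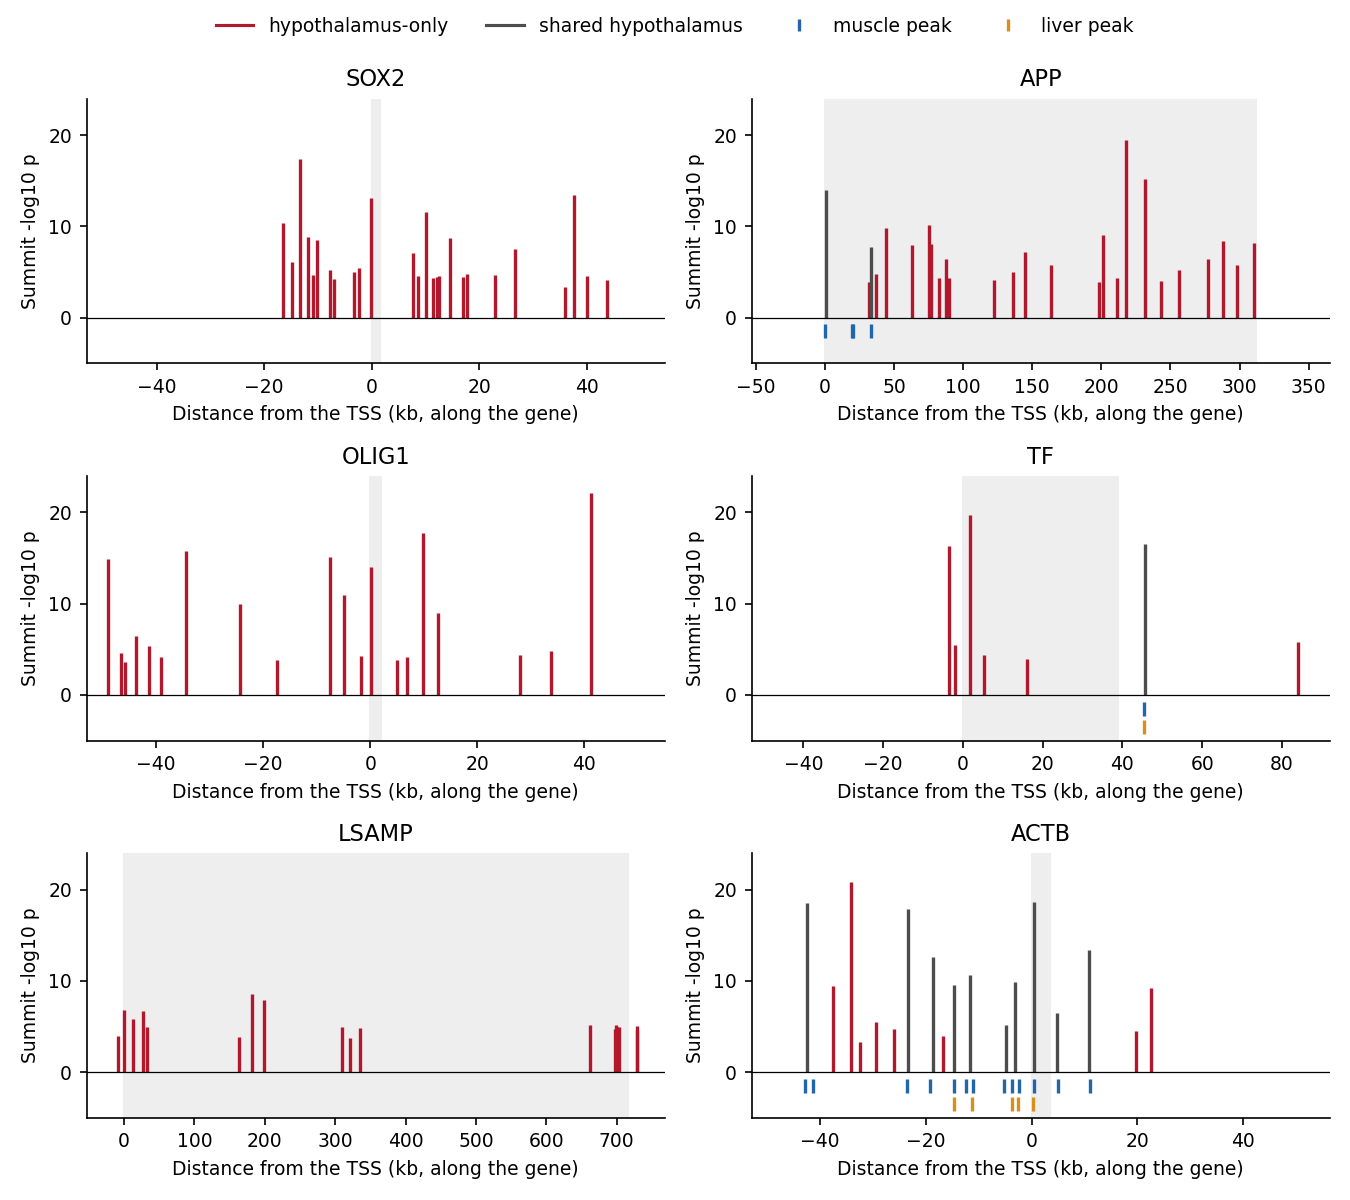
Summit −log10 p of hypothalamus-only (red) and shared (dark grey) hypothalamus peaks by distance from the TSS along 6 genes, with the gene body shaded and muscle and liver peaks as ticks below the line. SOX2, OLIG1, and LSAMP have hypothalamus-only regions and no tick, APP and TF have few ticks, and the start of ACTB is shared by all 3 tissues.

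Over all placed autosomal genes, where loci were chosen after their values were seen, the most hypothalamus-only regions were at FMNL2, a formin of the actin cytoskeleton, with 47 of 49 peaks, and at EPHB1, an ephrin receptor of axon guidance, with 44 of 46. The share over all autosomal hypothalamus peaks was 75.6%. CDK5RAP2 had 38 of 42 and ZEB2, a transcription factor of neural crest and glia, 36 of 40. At EPHB1 the gene body held 40, the largest 151 kb from the start with a summit of 17.2, while the start itself was shared with muscle. Of 639 placed genes with 10 or more hypothalamus peaks, 21 had hypothalamus-only regions alone. Besides those named above they include GRM3 (19 of 19), CHN2 (17 of 17), GPR37 (14 of 14), TMEFF2 (13 of 13), and LRRTM3, a synaptic adhesion gene (12 of 12).

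CHRNA1, the muscle acetylcholine receptor subunit, was another of the 21, with 10 of 10. Its largest region lay 45.1 kb from the start, and muscle did have a peak over the CHRNA1 start, with a summit of 5.59, where hypothalamus had none. At the other end, 14 genes of the 639 had at most 20% hypothalamus-only. SLC10A6 had none of 18 peaks, and the splicing gene RBM8A had 1 of 10.

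The 13 marker lists hold 190 different genes, of which 19 could be placed, so most lists say little about the tissue. Over the 19 loci, counted locus by locus, 120 of 172 peaks (69.8%, 62.5 to 76.1) were hypothalamus-only, beside 75.6% over all autosomal hypothalamus peaks. Loci outside the annotated part of chromosome 1 were placed mainly through peaks of another list. The 75.6% is therefore not a like background, here or for the lists below. Peaks in both the DLX1 and the DLX2 window count at each, which the interval does not allow for. No neuron, microglia, or endothelial and ependymal marker could be placed, so these cell types were not checked. The oligodendrocyte markers OLIG1 and CLDN11 had 20 of 20 and 16 of 17. SOX2, with 26 of 26, was the only SOX gene placed. The astrocyte marker S100B had 5 of 7, and its start was shared with muscle.

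Neuropeptide and receptor genes showed little at the 2 loci that could be placed. SST, which encodes the growth hormone inhibitor somatostatin, had 2 regions of 2 peaks, with summits of 8.22 and 4.38 and neither over its start. GHSR, the ghrelin receptor gene, had a single peak, which was shared, with a summit of 3.47. The transcription factor genes DLX1, DLX2, and NR4A2 had 2 of 4, 3 of 5, and 3 of 6, and the windows of DLX1 and DLX2 share peaks. The NR4A2 start, with a summit of 20.1, was open in muscle too.

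Markers of pituitary, muscle, and liver were placed as well, and their counts stand beside the 75.6% over all autosomal hypothalamus peaks. The pituitary markers POU1F1 and GH1 had 0 of 1 and 3 of 9, and no hypothalamus peak covered either start. The muscle marker DES had 3 of 7, while muscle had 22 peaks at that locus. Liver markers had 17 of 21, with 6 of 7 at TF and 11 of 14 at AHSG, and hypothalamus peaks covered both starts. Liver had 1 peak at TF, 45.3 kb from the start, and 3 at AHSG, and none covered either start. A hypothalamus-only region is therefore one with no listed peak in the other tissues, and how many of them are closed there was not tested.

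Housekeeping genes had 20 of 46 (43.5%, 30.2 to 57.8), below the share over all peaks. All 5 placed lie outside the annotated part of chromosome 1, where genes were placed mainly through peaks of another list. Such placement favours loci with a shared peak, so the lower share says little about housekeeping genes. ACTB, the cytoplasmic actin gene, had 8 of 18, GAPDH 6 of 12, PPIA and B2M 3 of 7 and 3 of 8, and YWHAZ 0 of 1. At ACTB the start had a summit of 18.7 in hypothalamus, 10.1 in muscle, and 5.13 in liver, values that were not scaled between lists. Even there, the highest summit of the locus, 20.8, was in a hypothalamus-only region 33.1 kb from the start, at chr25:38763959-38766140.

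The largest single region, by AUC and by summit, was chr19:51556113-51577764, which spanned 21652 bp with an AUC of 71043 and a summit of 23.9, and the nearest placed gene was 574 kb away. It came close to other tissues, with a muscle or liver peak 6.48 kb off. Next by AUC were chr15:75928088-75936632 (AUC 35676, summit 18.4) and a pair on chromosome 5, chr5:109808618-109821634 (AUC 35194, summit 17.8) and chr5:109751102-109764456 (AUC 32257, summit 15.7). The pair lay 284 kb and 227 kb from NOL12, and in the RefSeq order of the Tharparkar assembly the coding genes that follow NOL12 include TRIOBP, POLR2F, and SOX10, a transcription factor of oligodendrocytes. The distance of the pair to those genes was not measured.

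The other 6 of the 10 largest had an AUC of 25881 to 31942 and summits of 10.3 to 21.6. The 10 highest summits ran from 22.3 to 23.9, and apart from the region on chromosome 19 these regions were 1565 bp to 4789 bp long. The most isolated, chr28:14519209-14521457, lay 277 kb from any muscle or liver peak with a summit of 22.9. The region chr3:9608686-9612534, with a summit of 22.3, lay 24.2 kb from IGSF8, and in the same RefSeq order KCNJ9 and KCNJ10, the latter a potassium channel of astrocytes and oligodendrocytes, come next to IGSF8. Most of these leading regions had no placed gene within 100 kb.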

How the data were processed

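The consensus peaks of hypothalamus, muscle, and liver were analyzed as deposited. HISAT2 alignments to ARS-UCD1.2 were made by the authors, who then ran Genrich 0.6.1 on the 3 heifers of each tissue. The deposited signal is the AUC of the peak, the deposited −log10 p is that of its summit, and the deposited score follows from signal and length and was not used here. Starts were counted from 0 and are printed from 1. Hypothalamus-only regions were found with python 3.11.15, numpy 2.4.6, and pandas 2.3.3, an overlap of 1 bp counting as shared. The code passed 8 of 8 checks, made on 4000 simulated peaks or a part of them and, with bedtools 2.31.1, on the deposited lists. Shares carry Wilson 95% intervals (scipy 1.17.1), and plots used matplotlib 3.10.9. Gene positions came from the authors' supplementary peak annotation, with names and positions only, and recomputed distances matched within 1 bp for 1840 of 1840 peaks found in both. Named by rule are regions among the 10 largest and 10 highest, the 10 loci of the annotated part with the most regions or covered bases, and the placed marker genes. All other genes were chosen after their values were seen. The regions and gene lists were chosen with earlier results of these data known. No genome was used, and sequences, GC, and motifs were not analyzed here. RNA-seq was not used here, and 1 gene of the marker lists is not reported here.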

Additional observations from a re-analysis of the deposited data

How the results depend on the processing

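The 9 results were recomputed under alternative settings, 60 values in all, of which 24 stayed within the interval of the reported value or, for the number of regions, within 1.5 times. With hypothalamus summits of at least 5, 29124 regions remained (66.6%), with medians of 617 bp and 6.97, 53.3% with a neighbour within 12500 bp, and 58.5% of the peaks at listed loci. With that limit in every list there were 33678 (77.1%), with 657 bp, 7.20, 57.3% with a neighbour, and 8.65% within 3 kb of a TSS. Counting a peak within 1 kb as shared gave 71.5%, a median summit of 5.39, and 66.3% with a neighbour. Requiring 50% of a shared peak to be covered gave 86.1%, 529 bp, 5.71, 71.2% with a neighbour, 11.5% near a TSS, a median of 56.3 kb to a TSS, 38.8% inside a gene, and 79.7% at listed loci. The 10465 largest peaks per list gave 3425 (32.7%), 1963 bp, 14.9, 24.8% with a neighbour, 20.9% near a TSS, 36.2 kb, 43.0% inside a gene, and 50.98% at listed loci. For the listed loci, the limit in every list, the required coverage, the largest peaks, and the first megabase were added after seeing the data. Keeping the first megabase gave 75.05%. Within 1 kb of a TSS lay 3.08%, and a neighbour within 5 kb or 25 kb was found for 48.1% or 81.5%. Each of these settings changes which peaks or distances are counted by its construction, and other causes were not tested. GC content and the SOX core were not run, since no genome was used. No paired analysis was possible because values per heifer are in none of the lists, and for the same reason no heifer could be left out. Read depth per peak is unknown.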
